A study of Mus musculus with 16 samples.

Results

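Fatty acid oxidation breaks acyl chains down to acetyl-CoA for respiration. In mitochondria, long chains enter as carnitine esters, are shortened by chain-length specific acyl-CoA dehydrogenases and pass through the trifunctional protein, while peroxisomes shorten other chains with their own enzymes. Acyl-CoA thioesterases release free fatty acids from CoA. In adipose tissue these enzymes are most abundant in thermogenic (brown and beige) adipocytes, which burn fatty acids through the uncoupling protein UCP1.

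The 10 genes described here were taken by symbol from the 54532 genes of the deposited table. They are Cpt1b and Cpt2 of the carnitine shuttle, the dehydrogenases Acadm, Acadl and Acadvl, the trifunctional protein subunits Hadha and Hadhb, the peroxisomal Ehhadh, and the thioesterases Acot2 and Acot11. All 10 symbols were found once.

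The tissue was inguinal white adipose tissue (iWAT) of male mice that entered the experiment at 8 to 10 weeks of age. Has2_TG mice (Apn-Has2) overexpressed Has2, a hyaluronan synthase, and PH20_TG mice (Apn-PH20) overexpressed PH20, a hyaluronidase encoded by Spam1. Has2_WT and PH20_WT were the littermate controls of each line, which the study's methods give as Apn-rtTA mice. Doxycycline at 200 mg/kg was given in the chow of all 16 mice, controls included, over 5 days. The transgenes were driven by rtTA under the adiponectin promoter, so they are expressed in adipocytes, while the libraries hold RNA of the whole tissue. Fewer cells of a type and less RNA per cell therefore cannot be told apart. Each group had 4 libraries, and Has2_WT and PH20_WT are different mice.

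Libraries held 14421692 to 26751729 reads on genes. Has2 stood at 0.417 to 0.806 FPKM in Has2_WT and at 1.86 to 3.24 FPKM in Has2_TG. Spam1 had no read in the 12 libraries of the other groups and 0 to 12 reads in PH20_TG. The library labelled PH20_TG replicate 1 had none. Has2 reached 3.32 FPKM in that library and 3.26 FPKM in PH20_TG replicate 4, which had 5 Spam1 reads, as high as in Has2_TG. The other PH20_TG libraries had 0.380 and 0.0990 FPKM and PH20_WT 0.330 to 0.897 FPKM. The progenitor markers summed to 2265 and 2207 FPKM in PH20_TG replicates 1 and 4, against 513 and 723 FPKM in replicates 2 and 3. The libraries fell into 2 kinds. In 9 of them 15857 to 18573 genes had a read and only 466 to 1259 genes had 1 to 4 reads, while in 7 of them 20416 to 21986 genes had a read and 3187 to 4308 had 1 to 4 reads. Both kinds occur in every group, but unevenly, with 3 libraries of the second kind in PH20_TG and 1 in PH20_WT. A value of 0 in the first kind is given as listed and not as a limit. Adipocyte markers were abundant in all libraries, with a summed level of 14820 to 34268 FPKM over 15 genes.

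Sequences upstream of the starts are shown for the called members Acot11 and Acadvl, for Acadm, the other member with the letters searched for, and between Hadha and Hadhb, since PPAR receptors are known regulators of fatty acid oxidation genes. The windows are RefSeq's, 250 bases before the start, on the strand of the gene. Capitals mark the 6 letters AGGTCA or their reverse complement, the element that PPAR receptors read as a direct repeat with a gap of 1 base. Acadvl is given for chr11:70015429-70015678 (minus strand), Acadm for chr3:153944644-153944893 (minus strand) and Acot11 for chr4:106805008-106805257 (minus strand), all in GRCm38.p6. Acot11 has another start, with a window at chr4:106799832-106800081 (minus strand), which is not printed. It does not hold the 6 letters in either orientation.
Acadvl: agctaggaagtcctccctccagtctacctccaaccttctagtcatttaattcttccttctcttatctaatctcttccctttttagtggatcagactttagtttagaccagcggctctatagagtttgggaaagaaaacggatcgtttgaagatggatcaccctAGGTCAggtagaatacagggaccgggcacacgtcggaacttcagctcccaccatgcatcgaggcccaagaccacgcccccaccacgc
Acadm: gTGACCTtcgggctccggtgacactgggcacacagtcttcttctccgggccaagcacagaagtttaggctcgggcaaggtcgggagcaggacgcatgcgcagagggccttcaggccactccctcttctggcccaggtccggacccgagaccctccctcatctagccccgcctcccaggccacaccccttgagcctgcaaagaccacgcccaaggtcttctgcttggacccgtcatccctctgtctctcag
Acot11: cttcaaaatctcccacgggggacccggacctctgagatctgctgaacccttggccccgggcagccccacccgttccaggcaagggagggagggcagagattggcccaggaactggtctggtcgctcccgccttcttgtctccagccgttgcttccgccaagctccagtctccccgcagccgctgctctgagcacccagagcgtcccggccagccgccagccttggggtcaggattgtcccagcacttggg
Windows were found for 9 of the 10 members, and Cpt1b was not among them. The 6 letters occurred in the full 300 base windows of 2 of these members, Acadvl and Acadm, and in 18.1% of the 27025 genes with a window. No member held the full direct repeat with up to 2 mismatches on either strand, which 4.40% of all genes did. Hadha and Hadhb lie head to head on chromosome 5. Their starts in the gene annotation of the deposited table, not RefSeq's, are separated by 85 bases. These lie at chr5:30155163-30155247 (GRCm38.p6, plus strand) and are 69.4% G or C. RefSeq's starts differ, with windows before them at chr5:30154981-30155230 for Hadha and chr5:30155003-30155252 for Hadhb.
Hadha to Hadhb: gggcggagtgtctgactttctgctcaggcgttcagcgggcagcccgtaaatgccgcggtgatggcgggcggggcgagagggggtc

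**Figure D1:**
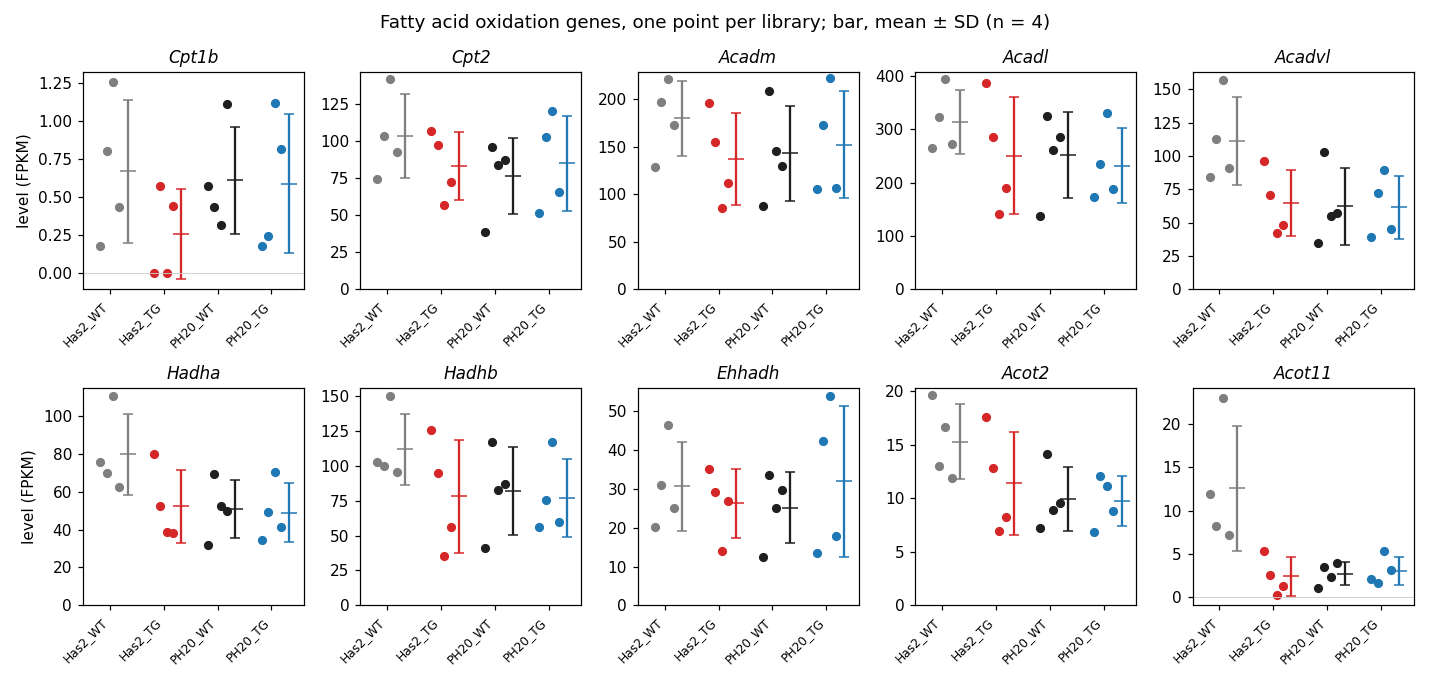
Level in FPKM (vertical axis, from 0) of each of the 10 genes in the 4 groups, 1 point per library, with a bar for the mean ± SD (n = 4). Acot11 is the panel in which the Has2_WT points, from 7.25 to 23.0 FPKM, lie above all 12 other points.

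Has2 overexpression was compared with its littermate controls. In Has2_TG the thioesterase Acot11, the dehydrogenase Acadvl and the trifunctional subunit Hadha were lower than in Has2_WT. The other 6 tested members had negative estimates and did not pass the test. Of 9 members tested, 3 were called lower, against a background of 3.75% of 12606 genes called lower. No member passed at an adjusted p under 0.05, which 0.103% of all genes did. The median log2 fold change was −0.49 over the 9 members and −0.03 over all genes tested.

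Cpt1b, the muscle and brown fat form of the carnitine palmitoyltransferase that commits long chains to mitochondria, had few counted reads, 0 to 72 per library. It is annotated at chr15:89416405-89425863 (GRCm38, minus strand). Its levels were 0.174, 0.799, 1.26 and 0.435 FPKM in Has2_WT and 0, 0.572, 0 and 0.440 FPKM in Has2_TG. In the PH20 study they were 0.570, 0.434, 0.316 and 1.11 FPKM in PH20_WT and 0.173, 0.239, 1.1198 and 0.812 FPKM in PH20_TG. The groups overlapped in both studies. With a mean of 28.3 reads in the Has2 study and 34.4 in the PH20 study it did not reach the minimum of 50, so it has no call. By an exact two-sided permutation test p was 0.20 for Has2 and 0.94 for PH20, where 0.029 is the smallest p that 4 libraries against 4 allow. Of its 3372 exonic bases, 2744 are shared with the readthrough gene Gm44502 on the same strand, which is listed at 0 in all 16 libraries. A low level and reads left uncounted in the shared bases cannot be told apart. The level of Cpt1b is therefore not set against that of other genes.

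Cpt2, which turns the carnitine esters back into acyl-CoA inside mitochondria, stood at 74.7, 104, 141.9 and 92.9 FPKM in Has2_WT and at 107.1, 97.7, 56.9 and 72.8 FPKM in Has2_TG. The groups overlapped widely. The log2 fold change was −0.31 (SE 0.25), with a 95% confidence interval from −0.87 to 0.25.

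The acyl-CoA dehydrogenases act on very long, long and medium chains in turn. Acadvl, the very long chain enzyme of the inner membrane, had 84.4, 113.1, 157.0 and 90.7 FPKM in Has2_WT and 96.5, 71.0, 42.2 and 48.4 FPKM in Has2_TG. Replicate 1 of Has2_TG lay inside the control range and the other 3 lay below it. The fall was 0.82 on the log2 scale (limma, SE 0.29, unadjusted p = 0.018, adjusted p = 0.36). Acadl, for long chains, was the most abundant member per kilobase, at 264.4 to 395.3 FPKM in Has2_WT and 140.3 to 387.8 FPKM in Has2_TG. Acadm, for medium chains, ranged from 128.8 to 221.7 FPKM in Has2_WT and from 85.5 to 195.8 FPKM in Has2_TG. Neither passed the test, with log2 fold changes of −0.41 (95% confidence interval −1.09 to 0.27) for Acadl and −0.44 (−1.05 to 0.17) for Acadm. Of the 2686 exonic bases of Acadvl, 1151 overlap Dvl2 on the opposite strand, which stood at 1.54 to 4.59 FPKM over all libraries.

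The ratio of dehydrogenases within a library does not depend on how libraries are scaled. The log2 ratio of Acadvl to Acadm was −0.71 ± 0.19 (SD, n = 4) in Has2_WT and −1.09 ± 0.09 in Has2_TG. All Has2_TG libraries, from −1.20 to −1.02, lay below all Has2_WT libraries, from −0.93 to −0.50. In the PH20 study the ratio was −1.24 ± 0.17 in PH20_WT and −1.31 ± 0.09 in PH20_TG, and these groups overlapped. The ratio of Acadl to Acadm was 0.81 ± 0.17 in Has2_WT and 0.84 ± 0.12 in Has2_TG. The ratios were picked after the values were seen, so no test is given.

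Hadha and Hadhb encode the alpha and beta subunits of the trifunctional protein, which carries out the remaining steps on long chains. Hadha had 75.5, 69.8, 110.6 and 62.6 FPKM in Has2_WT and 79.6, 52.5, 38.8 and 37.9 FPKM in Has2_TG. The lowest 3 values of the study were all Has2_TG, while replicate 1 of Has2_TG exceeded 3 of the controls. The fall was 0.64 on the log2 scale (limma, SE 0.27, unadjusted p = 0.037, adjusted p = 0.45). Hadhb had 102.5, 99.8, 149.9 and 95.4 FPKM in Has2_WT and 125.9, 94.7, 35.4 and 56.1 FPKM in Has2_TG. Its log2 fold change of −0.66 had the wider error (SE 0.36) and an interval from −1.46 to 0.15. The log2 ratio of Hadhb to Hadha was between 0.36 and 0.85 in 15 libraries and −0.13 in Has2_TG replicate 3. Up to 19.7% of the 50 base stretches of Hadhb transcripts also occur in other genes, mostly in Gm13910.

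**Figure D2:**
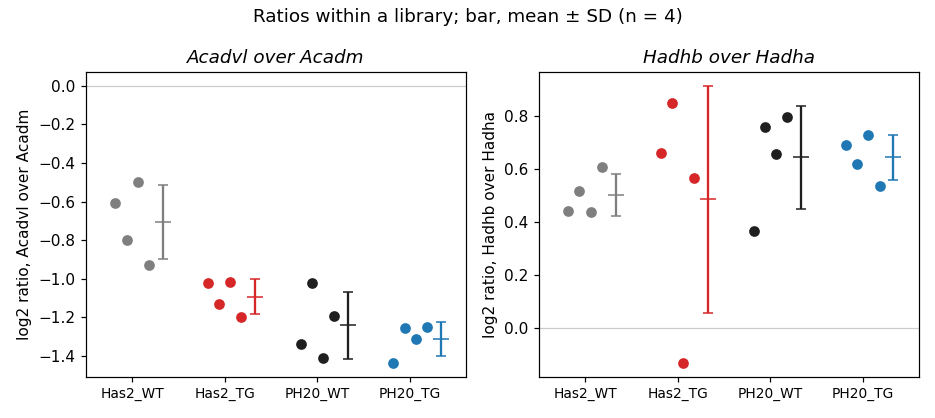
Log2 ratio of Acadvl to Acadm (left) and of Hadhb to Hadha (right) in each library of the 4 groups, with a bar for the mean ± SD (n = 4). The 4 Has2_TG points at left lie between −1.20 and −1.02, and at right a single Has2_TG library lies at −0.13.

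Ehhadh, the peroxisomal bifunctional enzyme, varied more between libraries than between groups. It had 20.3 to 46.6 FPKM in Has2_WT and 14.1 to 35.2 FPKM in Has2_TG. The log2 fold change of −0.23 had an interval from −0.95 to 0.49.

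Acot2, a mitochondrial thioesterase, had 19.6, 13.1, 16.6 and 11.9 FPKM in Has2_WT and 17.6, 12.8, 6.93 and 8.25 FPKM in Has2_TG. The 2 lowest values were Has2_TG, and the log2 fold change of −0.49 (95% confidence interval −1.15 to 0.17) did not pass. Its near copy Acot1 shares 24.5% of its 50 base stretches and stood at 0 to 0.697 FPKM.

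Acot11, a thioesterase known to be induced in brown fat by cold, moved most. Its levels were 11.9, 8.28, 23.0 and 7.25 FPKM in Has2_WT and 5.41, 2.64, 0.318 and 1.33 FPKM in Has2_TG. The groups did not overlap, which held for 1 of the 9 tested members and for 6.19% of all genes tested. The fall was 2.72 on the log2 scale (limma, SE 0.70, unadjusted p = 0.0033, adjusted p = 0.17), with an interval from −4.30 to −1.15. The lowest library, Has2_TG replicate 3, still held 36 reads. Of its 6056 exonic bases, 1263 overlap Fam151a on the opposite strand, which is listed at 0 in all libraries.

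Single libraries weighed on these counts. Has2_WT replicate 3 held the highest value of the Has2 study for 9 of the 10 members, and Has2_TG replicate 3 the lowest for 8. Without Has2_TG replicate 1 the count called lower was 7 of 9, and without Has2_TG replicate 3 or replicate 4 it was 1 of 9, Acot11. The shares of all genes called lower in these fits are not given here. Acot11 was called under every alternative run in this comparison. Hadha lost its call in 5 of the other fits and without any of Has2_WT replicates 1 and 3 and Has2_TG replicates 2, 3 and 4. Within the libraries with fewer genes the Acot11 difference was −2.66 (3 Has2_TG and 2 Has2_WT libraries), and within those with more genes it was −2.35 (1 and 2 libraries).

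**Figure D3:**
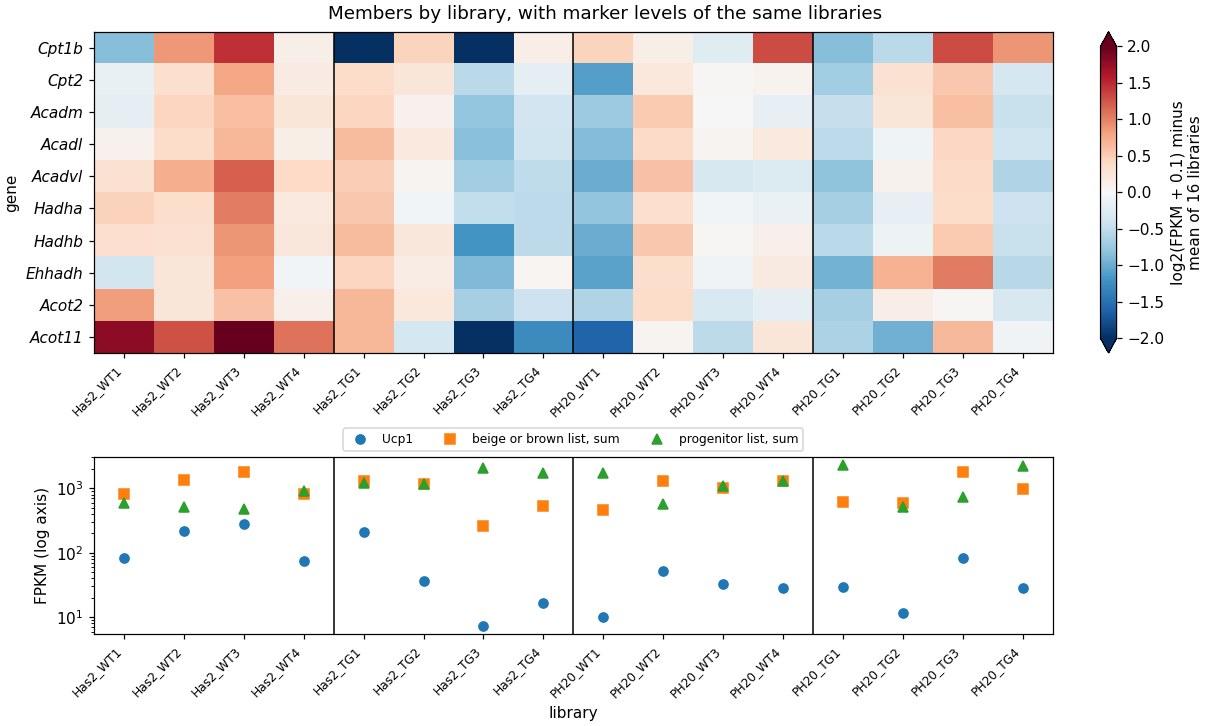
Upper panel, log2(FPKM + 0.1) of each member minus its mean over the 16 libraries, by library, with the colour scale limited to ±2. Lower panel, FPKM on a log axis of Ucp1 and the summed levels of the beige or brown and the progenitor marker lists in the same libraries. Has2_TG replicate 3 is low for nearly all members and has the lowest Ucp1, 7.31 FPKM.

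Markers of other cells moved with the same groups. Of 12 beige or brown adipocyte markers 4 were called lower in Has2_TG and none higher, with a median of −0.67. Their summed level was 808 to 1767 FPKM in Has2_WT and 258 to 1319 FPKM in Has2_TG, and none was at 0 throughout a group. Ucp1 was 74.4 to 275 FPKM in Has2_WT and 7.31 to 206 FPKM in Has2_TG, a log2 fall of 2.16 (limma, unadjusted p = 0.038, adjusted p = 0.46). With the mean level of these markers as a covariate the Acot11 change was −1.64, Acadvl was −0.37 and Hadha was −0.27, and Hadha was no longer called. Of 12 adipocyte progenitor markers 10 were called higher, and the summed level was 471 to 916 FPKM in Has2_WT and 1150 to 2050 FPKM in Has2_TG, without overlap. Of 10 macrophage markers 7 were called higher, at 339.8 to 667 FPKM and 719 to 973 FPKM. Among all 12606 genes tested, 788 were called higher. B cell markers were 60.1 to 583 FPKM in Has2_WT and 90.8 to 204 FPKM in Has2_TG, and 3 of 10 were called lower. Of 15 mature adipocyte markers 1 was called lower, with a median of 0.03. With the B cell markers as a covariate 2 members were called lower, and 2 without the libraries rich in them. The part of progenitors and macrophages in the members' change was not tested.

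The rest of the pathway was read from 6 lists. The regulators and targets of PPAR receptors held 5 of 14 genes called lower and none higher in Has2_TG, with a median of −0.31. Ppara, a receptor of this family, fell by 0.82 on the log2 scale (limma, adjusted p = 0.34), and Acacb, the carboxylase whose product inhibits the carnitine shuttle, fell by 0.88 (limma, adjusted p = 0.36). Of 15 other mitochondrial enzymes 1 was called lower, Etfdh, which passes electrons from the dehydrogenases to ubiquinone, at −0.69. Of the 6 carnitine shuttle genes tested, Crot, a peroxisomal carnitine acyltransferase, was called lower at −0.36. None of 14 peroxisomal genes, 7 other thioesterases and 12 synthetase and uptake genes tested was called. In all, 7 of 68 genes tested in these lists were called lower, 10.3%, against 3.75% of all genes. In Has2_WT against PH20_WT 12 of 68 were called higher, 17.6%, against 5.61% of all genes. Among these 12 were Ppara at 0.79, Acacb at 1.15, Etfdh at 0.64 and Crot at 0.58. Has2_WT enters both comparisons, so they are not separate evidence.

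PH20 overexpression was compared with its own controls. None of the 9 tested members was called, against 6.59% of 12532 genes called in either direction, and no gene at all passed at an adjusted p under 0.05 (0%). Log2 fold changes lay between −0.09 and 0.21, with a median of 0.01. The intervals were wide, and over the 9 members they reached from −0.89 to 1.31. With the B cell markers as a covariate all tested members had negative estimates, from −0.59 (Acot11) to −0.27 (Acadm). All were also negative with the mature adipocyte covariate and without PH20_WT replicate 1, the library rich in B cell markers. All were positive with the skeletal muscle covariate, and without PH20_TG replicates 1 and 4. Acot11 had 1.05, 3.51, 2.31 and 4.01 FPKM in PH20_WT and 2.13, 1.68, 5.31 and 3.20 FPKM in PH20_TG. These values overlapped throughout, as did those of the other 8 members, against 4.54% of genes whose groups did not overlap. Acadvl was 34.6 to 103 FPKM in PH20_WT and 39.1 to 89.2 FPKM in PH20_TG. Within the libraries with fewer genes (1 PH20_TG and 3 PH20_WT) log2 differences of the 9 members ran from −0.76 to −0.20. Within those with more genes (3 PH20_TG and 1 PH20_WT) they ran from −0.09 to 0.46. PH20_WT replicate 1 was the lowest of the study for 8 of the 10 members and PH20_TG replicate 3 the highest for 7. Of 18 skeletal muscle markers tested 16 were called lower in PH20_TG, and with their level as a covariate no member was called, while the Acot11 estimate moved from 0.20 to 1.13 (SE 0.69). B cell and T cell markers each had 5 of 10 called lower, where 3.39% of all genes were called lower in the fit reported. Without PH20_TG replicates 1 and 4, an alternative chosen after seeing the data that leaves 2 PH20_TG libraries, Ehhadh was called higher at 1.02 (limma, SE 0.39, adjusted p = 0.33), where 13.8% of all genes were called in either direction. Of 68 genes tested in the 6 pathway lists, 1 was called higher and 1 lower, 2.94%, a smaller share than among all genes. These were Fabp5, a fatty acid binding protein, at 0.71 (limma, adjusted p = 0.70) and Ppargc1b, a coactivator of mitochondrial genes, at −0.69 (limma, adjusted p = 0.66).

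**Figure D4:**
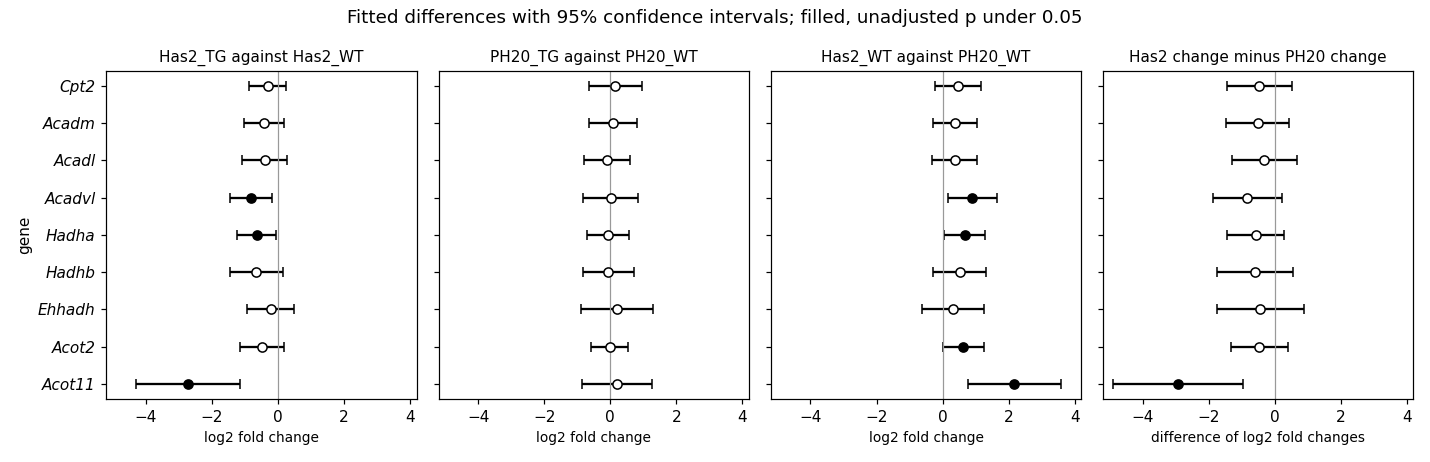
Fitted log2 differences (horizontal axis) of the 9 tested members with 95% confidence intervals in 3 comparisons and in the difference between the studies, filled where the unadjusted p was under 0.05. Acot11 is filled in 3 of the 4 panels, at −2.72, 2.18 and −2.92, and no gene is filled for PH20_TG against PH20_WT.

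The change in the Has2 study was then set against that in the PH20 study. Acot11 differed by −2.92 on the log2 scale (limma, SE 0.93, unadjusted p = 0.0065, adjusted p = 0.60), and it was the only 1 of the 9 members called lower, where 3.68% of all genes were. No gene passed at an adjusted p under 0.05 (0%). For the other 8 members the difference lay between −0.83 and −0.32 and did not pass, so a different response of Acadvl or Hadha in the 2 lines was not shown. Without PH20_TG replicates 1 and 4 the count was 3, Acot11 at −3.02, Acadvl at −1.30 and Ehhadh at −1.24 (limma, adjusted p = 0.20, 0.26 and 0.33), where 5.95% of all genes were called lower and 322 genes, no member among them, passed at an adjusted p under 0.05.

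The 2 control groups differed as well. Has2_WT was above PH20_WT for Acot11 by 2.18, for Acadvl by 0.90, for Hadha by 0.66 and for Acot2 by 0.63 on the log2 scale (limma, unadjusted p = 0.0045, 0.021, 0.036 and 0.045). These 4 of 9 members called higher compare with 5.61% of all genes, and none passed at an adjusted p under 0.05, as for all genes (0%). Acot11 was the only member without overlap, against 6.34% of genes. The mean level was highest in Has2_WT for 9 of the 10 members, and Ehhadh was highest in PH20_TG. For Acot11 the group means were 12.6 ± 7.21 FPKM (SD, n = 4) in Has2_WT, 3.08 ± 1.62 in PH20_TG, 2.72 ± 1.32 in PH20_WT and 2.42 ± 2.21 in Has2_TG, and the last 3 overlapped. Has2_WT is shared by this comparison, by Has2_TG against Has2_WT and by the difference between the studies, so the 3 are not separate evidence. The labels give no batch, so a difference between the lines and one between batches cannot be told apart. The count of 4 was 1 without Has2_WT replicate 3 or PH20_WT replicate 1 and 2 without Has2_WT replicate 1 or PH20_WT replicate 4. Ucp1 was also higher in Has2_WT, by 2.38, and with the beige or brown marker level as a covariate only Acot11 stayed called, at 0.88. Of 17 skeletal muscle markers tested 6 were called lower in Has2_WT and 13 did not overlap, with a median of −3.11, and with their level as a covariate 6 members were called higher, Acot11 at 3.21. The share of all genes called higher in that fit is not given here. Macrophage markers had 3 of 10 called lower and endothelial markers 3 of 8, and their part in the members' difference was not tested. Among all genes 4.66% were called lower in the fit reported.

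Likeness of pattern was measured over the 16 libraries as the root mean square difference of log2 levels, each centred on its own mean, among 12593 genes. Acot11 was closest to Sorcs2 at 0.55, Ucp1 at 0.66 and Elovl6 at 0.66, where its own SD was 1.36. For Acadvl, Hadha at 0.19 and Sdha at 0.20 were among the 3 closest genes, where its own SD was 0.60. Sdha encodes a subunit of succinate dehydrogenase, of the citric acid cycle and the respiratory chain. Cpt1b, with few reads, was closest to Gm7160 at 0.54, Gm11273 at 0.61 and Atp5k at 0.62. These distances are descriptions of libraries that share depth and tissue composition.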

How the data were processed

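Inguinal white adipose tissue from 16 mice was profiled by RNA-seq of total RNA, in 4 groups of 4 libraries. Per the labels and the study's methods, the authors checked reads with FastQC 0.11.9, aligned them with STAR 2.7.9a to GRCm38 with a GENCODE annotation, counted reads per gene with STAR and tested counts with DESeq2. The strand setting of the counting was not given in the sources used here. The authors deposited FPKM (reads scaled to gene length and library total), which is the unit used here.

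From FPKM, gene length and library total, read numbers came out whole for all genes (tolerance 0.01). Genes averaging 50 reads or more across a fit's libraries were tested on log2(FPKM + 0.1) with limma 3.58.1 (R 4.3.3, moderated two-sided test with a variance trend), within each study of 8 libraries. The comparison of controls and the difference between the studies were fitted over all 16 libraries. A gene was called at an unadjusted p under 0.05 (the study gives 0.05 as its p threshold, without saying whether p was adjusted), and Benjamini-Hochberg adjusted p-values cover all genes tested. A fold change on this scale understates the change of low genes. The script was tested on simulated data.

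Named genes were all 10 members, up to 3 called genes of each pathway list with the smallest p, and the 3 genes closest in pattern to each of the 3 members that varied most. Some genes this rule names are not reported here. The members and the lists were chosen with earlier results of these data known. Ratios between members were added after their values were seen and carry no test. Alternatives changed the pseudocount, filter, scaling, model, covariates and libraries. Groups came from the labels, and nothing further ties a library to an animal, so p-values measure the spread between libraries. No 2 libraries agreed within sampling noise. Promoter sequences are RefSeq's for GRCm38.p6.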

Additional observations from a re-analysis of the deposited data

Results flagged for a closer look

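The change of Acot11 differed between the 2 lines at an unadjusted p only. Has2_WT, which enters this difference, was also above PH20_WT by 2.18 on the log2 scale. A difference between the lines and one between batches cannot be told apart. The Has2 change minus the PH20 change was −2.92 on the log2 scale by an interaction term in limma (unadjusted p = 0.0065, adjusted p = 0.60 over all genes).

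Hadhb in Has2_WT replicate 3, at 149.9 FPKM, lay far above the other 3 Has2_WT libraries by Dixon's criterion. This was 1 of 40 groups examined, and chance gives about 1 in 20.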

How the results depend on the processing

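In Has2_TG against Has2_WT the count of members called lower, 3, became 5 with the skeletal muscle markers as a covariate, stayed at 2 to 4 under the other 15 alternatives, and ran from 1 to 7 when single libraries were left out. With the beige or brown markers as a covariate Cpt2 turned to 0.045, Acadl to 0.064 and Ehhadh to 0.23. Without single libraries Ehhadh ran from −0.40 to 0.046. The adjusted p of Acot11 ran from 0.056 to 0.42 over all alternatives. In PH20_TG against PH20_WT estimates near 0 changed sign. Acadvl was −0.062 when scaled to the reads on genes, −0.071 with quantile normalization, −0.085 with voom, −0.47 and −0.31 with B cell and mature adipocyte covariates, −0.15 with the kind of library, −0.24 without the libraries rich in B cell markers and −0.10 with the beige or brown covariate. Acot11 was −0.59, −0.068 and −0.18 with the B cell covariate, the mature adipocyte covariate and without the libraries rich in B cell markers, and Hadha was 0.23 with the skeletal muscle covariate. Without single libraries Acot11 ran from −0.18 to 0.43, Acadvl from −0.24 to 0.29 and Hadha from −0.27 to 0.11. The skeletal muscle covariate moved Acot11 there from 0.20 to 1.13. With the mature adipocyte covariate 1 member, Acadl, was called there, and without the 2 PH20_TG libraries high in Has2 1 member, Ehhadh, with Hadha at 0.26. For the difference between the studies 5 members were called lower with the skeletal muscle covariate, 3 without the PH20_TG libraries high in Has2, and 1 to 2 without single libraries. In Has2_WT against PH20_WT the 4 called members became 6 with the skeletal muscle covariate, 2 with voom, with the mature adipocyte covariate or with the kind of library, 1 without the libraries rich in B cell markers or with the beige or brown covariate, and 1 to 4 without single libraries. The cause was not tested. The covariates of kind of library and beige or brown markers and the removal of the libraries rich in B cell markers or of the PH20_TG libraries high in Has2 were chosen after seeing the data.

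The labels do not say whether libraries with the same replicate number are paired. Same-numbered libraries correlated at −0.18 to 0.42 in their deviations from the group means, which cannot settle it. PH20 replicates 1 and 2 and Has2 replicate 2 correlated most with their own number, and the other replicates with another number. With the replicate number as a block (replicate block) 3, 0, 1 and 3 members were called in the 4 comparisons, and Acot2 lost its call in Has2_WT against PH20_WT. Of all genes 9.15%, 10.4%, 8.80% and 11.7% were then called in either direction. In the fits reported these shares were 10.0%, 6.59%, 7.70% and 10.3%. Under voom 51 genes passed at an adjusted p under 0.05 in Has2_TG against Has2_WT, none of them a member, and 13 in the fit reported. Without the PH20_TG libraries high in Has2, 4 genes passed in PH20_TG against PH20_WT, none of them a member. Voom moved the median of all genes from −0.01 to −0.12 in Has2_WT against PH20_WT and by 0.10 in the difference between the studies.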
